A study of Mus musculus with 35 samples.

Results

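Solute carriers are the membrane proteins that move amino acids, sugars, lactate, nucleosides, vitamins, metals and ions into, out of and within cells, and 157 of their genes expressed in sorted microglia are described here across 3 brain regions. The genes were selected on their level: a symbol in the GRCm38 GENCODE annotation that starts with Slc, a protein coding biotype and a mean of at least 5 CPM (a gene's counts per 1000000 counts of its library, with TMM scaling between libraries) over all samples. Of the 21236 genes in the counts table, 285 had such a symbol and 282 of those were protein coding, 118 had a mean under 5 CPM, and 7 were left out by name (Slc1a2, Slc1a3, Slc17a7, Slc25a20, Slc40a1, Slc11a1 and Slc11a2). Slc6a6 and Slc39a12 were marked for display because of their regional pattern, so their levels are given as a description with no test.

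RNA-seq was done on 35 samples from 12 adult mice, with 12 samples from the midbrain, 12 from the striatum and 11 from the prefrontal cortex (PFC). Each region had 6 male and 6 female samples, except that the PFC had 5 from males. All mice carried one copy each of the Tmem119-2A-CreERT2 allele and of the Ai14(RCL-tdTomato)-D reporter, on a line that the series title gives as C57Bl/6J, and all received tamoxifen. Cre from the Tmem119 locus, a gene that marks microglia in the brain, removes a stop sequence in the reporter after tamoxifen, and red cells were sorted. No sample came from mice without tamoxifen or without the alleles, and cells that did not express Tmem119 at the time of tamoxifen were outside the sort.

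Microglia, the resident macrophages of the brain, survey neural tissue, clear debris and release cytokines, and the supply of fuel and building blocks for this work passes through solute carriers. Families differ in how they work: the SLC1, SLC6 and SLC38 families use sodium to draw amino acids in, while SLC7 light chains swap one amino acid for another and several of them need the heavy chain encoded by Slc3a2 to reach the membrane. SLC39 (ZIP) proteins bring zinc and other metals into the cytosol and SLC30 (ZnT) proteins take zinc out of it, SLC25 carriers sit in the inner mitochondrial membrane, and most SLC35 proteins are at home in the Golgi and the endoplasmic reticulum.

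Total counts per sample ran from 37680501 to 54131421, so that 3 counts stood for 0.0561 to 0.0789 CPM, far under the 5 CPM that a carrier had to reach on average. All 12 microglial markers listed were present, with summed levels of 42250 to 47910 CPM in the midbrain, 45980 to 53870 in the striatum and 43600 to 51880 in the PFC. Of these 12, 5 had a region effect (an adjusted p under 0.05), beside 8.89% of all genes in the counts table. Against the midbrain, 2 were called higher in the PFC (2.75% of all genes were) and 4 higher in the striatum (3.5%). Markers of other brain cells were low: 10 astrocyte markers summed to 43.0 to 220 CPM in a sample, 12 neuronal markers to 5.49 to 44.3 CPM and 7 endothelial markers to 11.1 to 61.1 CPM. The astrocyte sum averaged 73.1 CPM in the midbrain, 127 in the striatum and 104 in the PFC, and the neuronal sum 9.10, 17.3 and 24.96 CPM. Aldoc made up most of the astrocyte sum, at 43.2, 81.5 and 72.9 CPM in these regions. The 10 oligodendrocyte markers summed to 231 to 881 CPM, 4 mural markers to at most 9.62 CPM, and the 5 border macrophage markers in the table to at most 25.5 CPM. One counts column is named for the PFC of mouse 3 while its sample label gives the striatum, and the label was followed. In bulk samples, fewer cells of a type and less RNA per cell cannot be told apart.

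The level of the carriers varied much more between genes than between regions. Per kb of exon, the range was 0.707 CPM for Slc8a1, a sodium-calcium exchanger, to 648 CPM for Slc25a5, the ADP/ATP carrier of mitochondria, with a median of 5.98 CPM over the 157 genes. After Slc25a5 came Slc2a5, the fructose transporter GLUT5, at 364 CPM per kb and Slco2b1, an organic anion transporter, at 287 CPM per kb. The CD98 heavy chain gene Slc3a2 was the fourth at 132 CPM per kb. The next were Slc25a11 (102 CPM per kb), the oxoglutarate-malate carrier, Slc35b2 (94.9), which supplies the Golgi with the sulfate donor PAPS, Slc7a8 (77.7), the light chain LAT2, Slc25a4 (74.6), another ADP/ATP carrier, Slc29a3 (67.9), a lysosomal nucleoside carrier, and Slc46a1 (66.9), the proton-coupled folate transporter. These 10 genes made up 46.1% of the summed CPM of the 157. By class, the median level per kb was highest for the carriers of nucleosides, vitamins and choline, as the plot of levels by class shows. Exons of 54 of the genes overlapped another annotated gene, and Slc39a7 was the one with more than 50% of its exon bases shared, so its counts are uncertain.

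**Figure D1:**
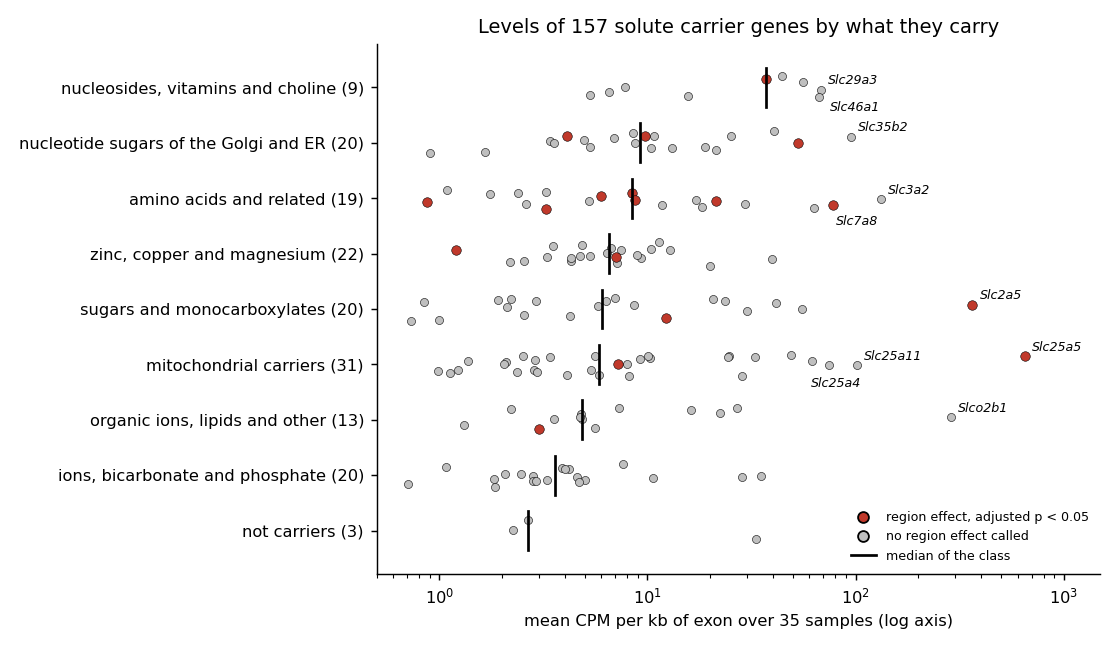
Mean CPM per kb of exon over 35 samples (log axis) for each of the 157 solute carrier genes, grouped by what the family carries, with the number of genes in parentheses. Points are genes, red points had a region effect at an adjusted p under 0.05, black lines are class medians, and the 10 highest genes are named. Slc25a5 (648 CPM per kb) and Slc2a5 (364) lay furthest to the right, and no carrier of ions, bicarbonate or phosphate was red.

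The lowest genes inside the limit were Slc25a13 (mean 5.24 CPM) and Slc2a3 (5.28 CPM), and the nearest outside were Slc25a30 (4.93 CPM) and Slc20a2 (4.89 CPM). Slc25a13 and Slc2a3 each had a mean under 5 CPM in 1 region, at 4.95 CPM in the midbrain and 4.80 CPM in the PFC. In addition, 3 symbols name proteins outside the carrier families (Slc4a1ap, Slc7a6os and Slc9a3r1). They were kept because the rule goes by symbol, and none had a region effect. The heavy chain gene Slc3a2 was counted with the amino acid carriers that it partners.

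Which carriers differed between microglia of the 3 regions was asked with all 35 samples in 1 fit that had terms for region and for sex (edgeR quasi-likelihood F-test). A region effect, meaning an adjusted p under 0.05 over all 21236 genes, was found for 18 of the 157 genes (11.5%), or for 16 without Slc6a6 and Slc39a12. The background was 8.89% of all genes in the table and 11.8% of the 8923 protein coding genes with a mean of at least 5 CPM, so the share among the carriers was near that background. Samples of a mouse share the animal, and the p-values of this fit take them as separate. With the mouse as a block, which compares regions within each animal, 30 of the 157 had a region effect, beside 14% of all genes and 22.4% of those 8923. The median absolute log2 fold change between PFC and midbrain was 0.0917 for the carriers and 0.0899 for the 8923 genes, and between striatum and midbrain 0.098 and 0.107.

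A gene was called in a pair of regions when it had the region effect, an unadjusted p under 0.05 for that pair and a fold change over 1.2. Against the midbrain, 4 carriers were higher in the PFC (2.55%, against 2.75% of all genes and 2.68% of the 8923) and 7 were lower (4.46%, against 3.24% and 3.49%). In the striatum 4 were higher than in the midbrain (3.5% of all genes and 4.01% of the 8923 were) and 7 were lower (2.98% and 3.66%). Slc39a12, marked for its pattern, was among the higher genes of both regions. Without Slc6a6 and Slc39a12, 3 were higher in the PFC and 3 in the striatum. The 7 lower genes were the same in both regions: Slc1a4, Slc7a1, Slc7a5, Slc38a2, Slc39a14, Slc16a3 and Slc35e4. The comparisons share the midbrain samples, so this overlap is not a second finding. Of those 7, 4 carry amino acids.

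**Figure D2:**
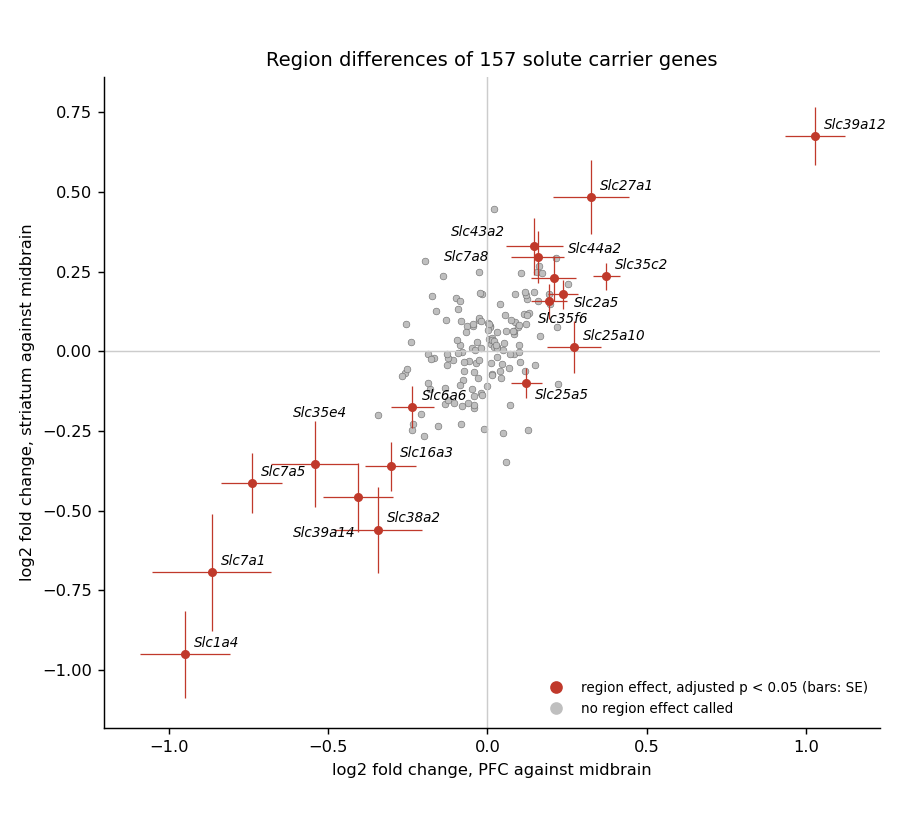
Log2 fold change of PFC against midbrain (x axis) and of striatum against midbrain (y axis) for 157 solute carrier genes. Red points had a region effect at an adjusted p under 0.05 and carry bars of 1 SE in each direction, and both axes share the midbrain samples. Slc1a4 lies at the lower left, at -0.95 on both axes, and Slc39a12 at the upper right, at 1.03 and 0.68.

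Of 19 carriers of amino acids and related compounds, 7 had a region effect, beside 8.89% of all genes and 11.8% of the 8923. Of the 7, 1 was Slc6a6, which was marked for its pattern. Slc1a4 (ENSMUSG00000020142, chr11:20302180-20332713, - strand, GRCm38), which exchanges alanine, serine, cysteine and threonine, lay between 13.9 and 28.4 CPM in the midbrain (median 17.5), between 6.06 and 12.98 CPM in the striatum (median 10.3) and between 6.11 and 13.8 CPM in the PFC (median 9.12). The lowest midbrain sample was above the highest sample of both other regions. Slc1a4 fell by 48.2% in the PFC (log2 fold change -0.95 ± 0.14, SE, adjusted p = 1.14e-05) and by 48.3% in the striatum (-0.95 ± 0.14, adjusted p = 1.51e-05). It was lower than in the midbrain in 11 of 11 mice in the PFC and in 12 of 12 mice in the striatum, and striatum and PFC did not differ beyond the error (log2 fold change -0.0007 ± 0.14). Fitted apart, mice 1 to 6 gave -0.74 in the PFC and -0.87 in the striatum, and mice 7 to 12 gave -1.17 and -1.05.

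Slc7a1 encodes CAT1, which brings in arginine and lysine. It ranged from 6.93 to 25.2 CPM in the midbrain (median 12.4), from 5.82 to 12.0 CPM in the striatum (median 7.83) and from 4.43 to 11.2 CPM in the PFC (median 7.45). The ranges overlapped, and the midbrain samples of mice 8 and 11, at 24.95 and 25.17 CPM, stood above the other 10. Slc7a1 fell in the PFC by 45.1% (log2 fold change -0.87 ± 0.19, adjusted p = 0.00214, lower in 10 of 11 mice) and in the striatum by 38.2% (-0.69 ± 0.18, adjusted p = 0.014, lower in 11 of 12). The call held with each mouse left out in turn, with a log2 fold change of -0.95 to -0.81 in the PFC and -0.79 to -0.59 in the striatum. It ended in mice 7 to 12 alone (-1.08 and -0.86) and in females alone (-0.68 and -0.50).

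Slc7a5 (ENSMUSG00000040010, chr8:121881150-121907694, - strand) encodes LAT1, the light chain that takes up large neutral amino acids such as leucine in exchange for glutamine. Its level was 33.4 to 53.1 CPM in the midbrain (median 40.2), 23.5 to 37.3 CPM in the striatum (median 30.6) and 17.3 to 33.8 CPM in the PFC (median 24.3). Midbrain was highest, striatum intermediate and PFC lowest, with 1 PFC sample inside the midbrain range. Slc7a5 fell by 40.1% in the PFC (log2 fold change -0.74 ± 0.096, adjusted p = 1.03e-06, lower in 11 of 11 mice) and by 24.9% in the striatum (-0.41 ± 0.093, adjusted p = 0.00396, lower in 11 of 12). Endothelial cells also express Slc7a5, and the sum of 7 endothelial markers averaged 28.7 CPM in the midbrain, 38.1 in the striatum and 31.8 in the PFC. Pecam1 made up most of that sum (19.4, 23.95 and 23.6 CPM). Cldn5 (2.11 CPM in the midbrain, 0.329 in the PFC), Esam (1.10 and 0.273) and Flt1 (1.075 and 0.5325) were lower in the PFC. Pecam1, Kdr, Tek and Cdh5 were higher there, and 0 of the 7 had a region effect. Tek and Cdh5 were at 0.166 and 0.1725 CPM in the midbrain, near the level of 3 counts. With the log2 sum of astrocyte, oligodendrocyte, neuronal and endothelial markers as a covariate the values of Slc7a5 were -0.73 in the PFC and -0.47 in the striatum. Endothelial markers alone were not tested as a covariate.

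The heavy chain gene Slc3a2, the partner of LAT1, did not follow. Its levels were 421 to 527 CPM in the midbrain, 408 to 489 CPM in the striatum and 432 to 548 CPM in the PFC, and the region effect did not pass (adjusted p = 0.423). The log2 fold change was 0.045 ± 0.043 in the PFC and -0.041 ± 0.042 in the striatum. Among the other light chains that pair with it, Slc7a8 (LAT2) was higher in the striatum, with 324 to 505 CPM (median 436) against 268 to 458 CPM in the midbrain (median 354) and 313 to 468 CPM in the PFC (median 393). All ranges overlapped, and the striatum exceeded the midbrain in 11 of 12 mice (log2 fold change 0.30 ± 0.081, adjusted p = 0.0186). Slc7a7, the light chain y+LAT1 for cationic amino acids, was at 194 ± 20.5 CPM (SD, n = 12) in the midbrain and 216 ± 13.2 CPM (n = 12) in the striatum, and Slc7a6, its close relative y+LAT2, at 26.02 ± 2.75 CPM and 22.1 ± 1.94 CPM. Neither had a region effect at this threshold (adjusted p = 0.0576 and 0.113), although Slc7a7 did with the mouse as a block (adjusted p = 0.0188).

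Slc43a2 encodes LAT4, a carrier of branched-chain amino acids and phenylalanine that needs no heavy chain. It was at 38.4 to 64.8 CPM in the midbrain (median 53.3), 52.9 to 82.6 CPM in the striatum (median 65.3) and 43.0 to 73.6 CPM in the PFC (median 62.7). The striatum was above the midbrain in 12 of 12 mice, though the ranges overlapped (log2 fold change 0.33 ± 0.089, adjusted p = 0.0168). Both Slc43a2 and Slc7a8 rested on narrow margins: with the log2 sum of other brain cell markers as a covariate their striatum values went to 0.22 and 0.20 and the calls ended, and so they did with the genes of the dissociation response as a covariate (0.32 and 0.29). When each mouse was left out in turn, the call of Slc43a2 remained only without mouse 1, 7 or 11, and that of Slc7a8 only without mouse 6 or 11. An antisense gene shares 922 exon bases with Slc43a2. The libraries do not mark strand, so reads from those bases cannot be told apart by strand.

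Slc38a2 encodes SNAT2, a sodium-coupled importer of glutamine and alanine. The midbrain ran from 105 to 274 CPM (median 236), with the male sample of mouse 5 lowest and the other 11 at 196 CPM or more. The striatum ran from 84.4 to 242 CPM (median 149) and the PFC from 138 to 214 CPM (median 193). Slc38a2 fell by 32.2% in the striatum (log2 fold change -0.56 ± 0.13, adjusted p = 0.00697, lower in 11 of 12 mice) and by 21.2% in the PFC, where the pair passed at its unadjusted p of 0.017 but had an adjusted p of 0.152. Mice 1 to 6 gave -0.32 in the striatum and mice 7 to 12 gave -0.83. With the log2 sum of astrocyte markers as a covariate the values were -0.49 in the striatum and -0.30 in the PFC, and both calls ended. The other members of its family, Slc38a1, Slc38a7, Slc38a9 and Slc38a10, had no region effect, and Slc38a10 was called higher in the striatum than in the midbrain with the mouse as a block.

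Slc6a6, the taurine transporter, had 57.3 to 91.6 CPM in the midbrain (median 78.3), 54.2 to 84.1 CPM in the striatum (median 69.7) and 59.5 to 76.8 CPM in the PFC (median 64.6). The midbrain was highest on average, the ranges overlapped throughout, and the male midbrain sample of mouse 5 was the lowest of its region. The mean level was 11.5% lower in the striatum and 15.0% lower in the PFC than in the midbrain, under the fold of 1.2 that a call needed. Within mice, the PFC was below the midbrain in 10 of 11 and the striatum in 10 of 12. Mice 1 to 6 gave log2 fold changes of -0.14 in the PFC and -0.04 in the striatum, and mice 7 to 12 gave -0.33 and -0.31.

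**Figure D3:**
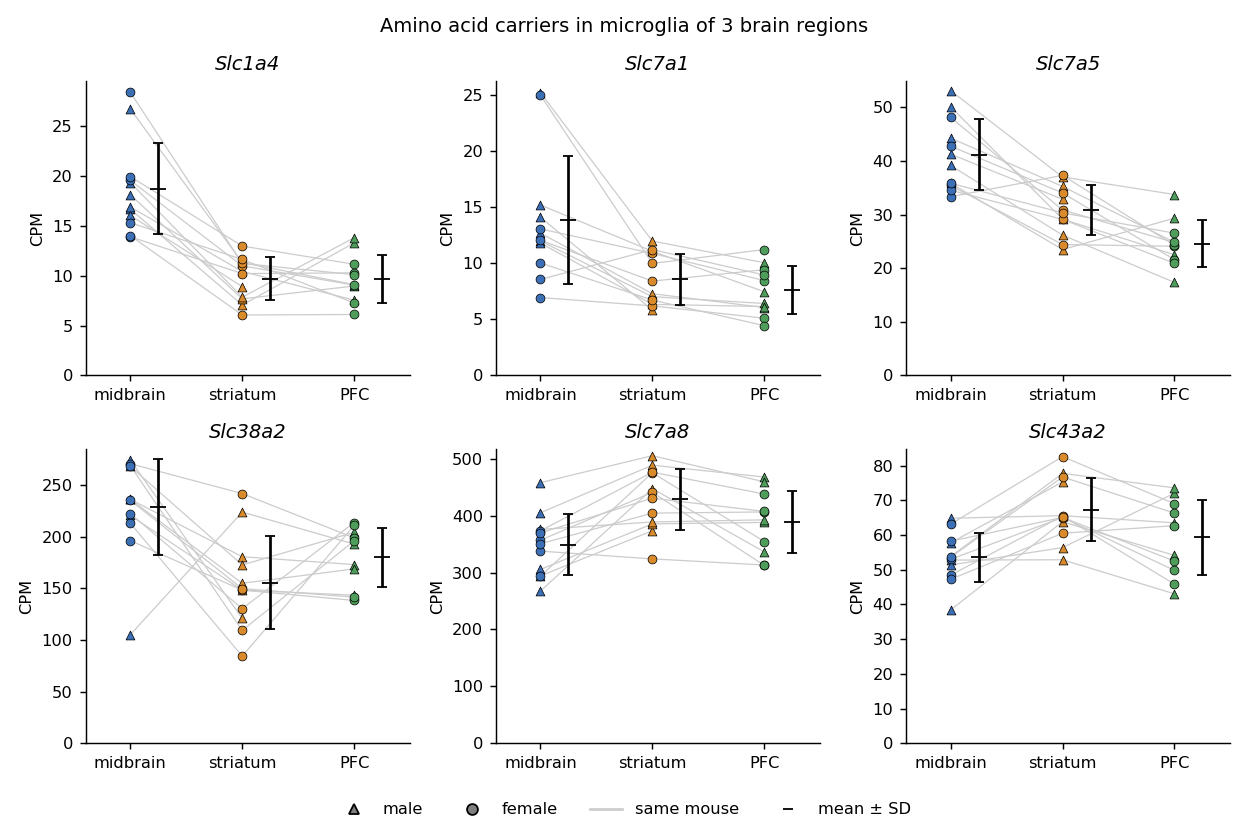
CPM of 6 amino acid carrier genes in each of 35 samples by region, with triangles for males, circles for females, grey lines joining samples of a mouse and black bars for mean ± SD. For Slc1a4 every midbrain sample (13.9 to 28.4 CPM) lies above every striatum and PFC sample, and Slc7a8 and Slc43a2 are highest in the striatum with overlapping ranges.

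Several of these carriers belong to the amino acid response, in which the transcription factor ATF4 raises carriers, synthetic enzymes and tRNA synthetases when amino acids run short. Not every amino acid carrier was lower outside the midbrain, and Slc3a2 had no region effect. Under the level limit, Slc7a11 was at 3.61 CPM in the midbrain, 2.88 in the striatum and 4.36 in the PFC. It was not called, and is named after its values were seen. A list of 40 other genes of that response was written from textbook knowledge with earlier results of these data known. Of these, 38 were in the table and 15 had a region effect, beside 8.89% of all genes and 11.8% of the 8923. Against the midbrain, 9 were lower (3.24% of all genes were) and 2 higher (2.75%) in the PFC, and 10 were lower (2.98%) and 2 higher (3.5%) in the striatum. The median log2 fold change over the 38 genes was -0.19 in the PFC and -0.22 in the striatum, beside 0.011 and 0.013 over all genes.

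Asns, which makes asparagine, was at 7.77 ± 2.05 CPM (SD, n = 12) in the midbrain, 1.91 ± 0.774 CPM (n = 12) in the striatum and 1.15 ± 0.658 CPM (n = 11) in the PFC (log2 fold change -2.78 ± 0.32 in the PFC, adjusted p = 6.32e-08). Mthfd2, a mitochondrial folate enzyme, fell by 1.23 ± 0.15 on the log2 scale in the PFC (adjusted p = 2.1e-07). Nupr1, a stress-induced chromatin protein, fell by 1.11 ± 0.15 (adjusted p = 3.05e-06) and Eif4ebp1, a translation inhibitor, by 0.79 ± 0.092 (adjusted p = 1.24e-07). The other genes called lower in the PFC were Trib3, Aldh1l2, Aldh18a1, Iars and Chac1, which was near the floor at 0.134 CPM there, and these 9 genes were also called lower in the striatum, where Atf4 itself was the tenth, at 175 ± 21.3 CPM in the midbrain and 126 ± 38.8 in the striatum. Psat1, an enzyme of serine synthesis, went the other way, with 30.1 ± 6.48 CPM in the midbrain and 42.5 ± 8.01 in the PFC (log2 fold change 0.50 ± 0.10, adjusted p = 8.85e-04), as did Cbs, which was near 1 CPM. Ddit3, Phgdh, Psph and most tRNA synthetases were not called. In the PFC the synthetases ran from -0.29 ± 0.087 (Iars, which was called) to 0.086 ± 0.056 (Aars). Aars and Eprs (0.011 ± 0.13) were positive and the other listed synthetases negative, such as Tars (-0.25 ± 0.089) and Wars (-0.011 ± 0.068). Sars had a region effect (adjusted p = 0.0101) but stayed under the fold of 1.2 (-0.21 ± 0.054 in the PFC). Of 12 genes that respond to tissue dissociation, such as Fos and Egr1 (Atf3 is in both lists), 0 had a region effect, beside 8.89% of all genes. Their median log2 fold change against the midbrain was -0.13 in the PFC and -0.23 in the striatum. In the striatum they ran from -0.62 ± 0.26 (Fosb) to 0.27 ± 0.17 (Zfp36). Nfkbiz was at -0.57 ± 0.17 there (adjusted p = 0.0313 for the pair), with an adjusted p of 0.0664 for region. With the log2 sum of these 12 genes as a covariate the 7 carriers that were lower in both regions kept their calls. With the log2 sum of astrocyte markers as a covariate, 6 genes of the list were lower in the striatum in place of 10, and of the 7 carriers Slc38a2 lost both its calls. The astrocyte sum averaged 73.1, 127 and 104 CPM in midbrain, striatum and PFC. Aldoc alone was at 43.2, 81.5 and 72.9 CPM, so this covariate mostly followed 1 gene.

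**Figure D4:**
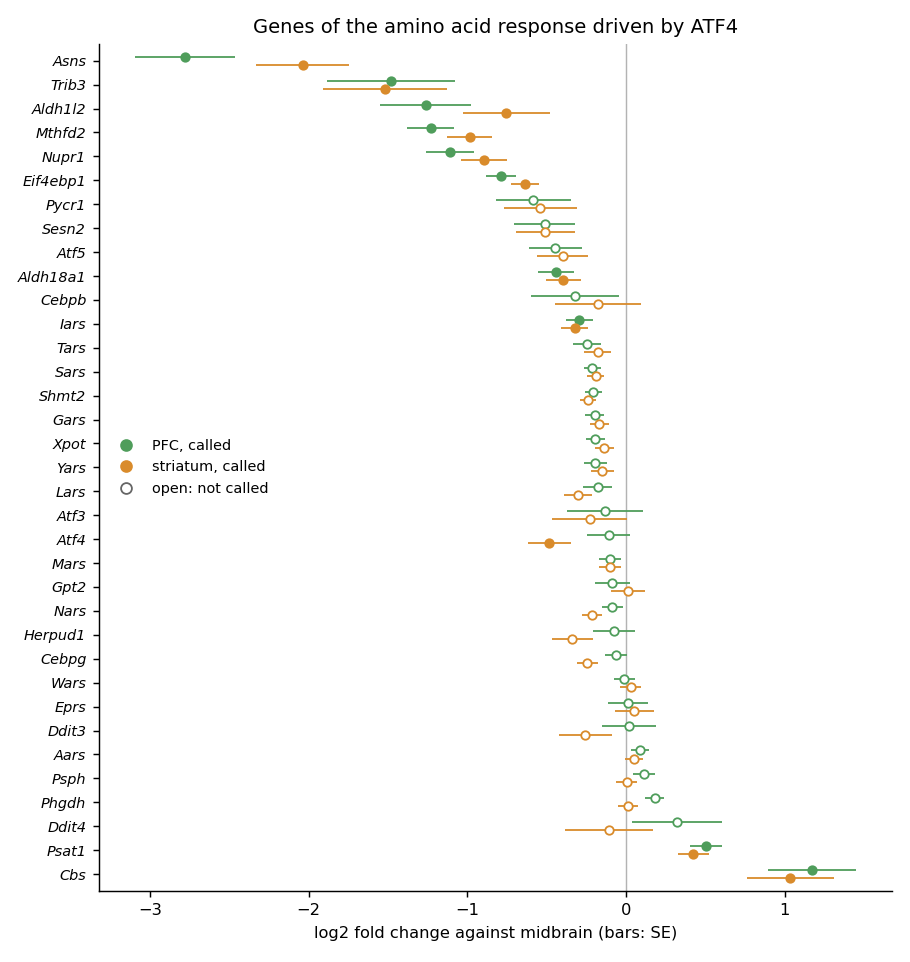
Log2 fold change against midbrain, with bars of 1 SE, for the 35 genes of the amino acid response list with a mean of at least 1 CPM, in PFC (green) and striatum (orange). Filled points were called and open points were not. Asns (-2.78 in the PFC), Trib3, Aldh1l2, Mthfd2 and Nupr1 lie furthest to the left, and Psat1 and Cbs lie to the right.

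ATF4 binds with C/EBP partners at a composite element, searched here as TGATGNAA on both strands. Its first bases can overlap the CACGTG motif that was searched as well. RefSeq promoter windows (GRCm38.p6, 250 bases before to 50 after each gene's start) were matched for 121 of the 157 carriers. The element stood in 3.97% of all 32851 windows, and in a window of 4.51% of all genes and of 2.67% of those of the 8923 genes that matched. Among the carriers it stood in the windows of 4 of 121 genes, Slc1a4, Slc50a1, Slc7a7 and Slc9a9, and in the amino acid response list in 14 of 33. Of those 14, Aars, Atf3, Gars, Herpud1, Pycr1, Tars, Vldlr and Yars were not called against the midbrain. Asns, Chac1, Trib3, Nupr1 and Iars were lower in both regions, and Fgf21 was not in the counts table. The genes printed below were picked from those that were lower. Of the 7 carriers lower in both regions, 5 were matched, and Slc1a4 was the one with the element. The element is shown for Slc1a4 and for 4 list genes that were lower in both regions, with its 8 bases in capitals (4 of the 5 hold it on the other strand, read in reverse complement) and the gene's strand read 5′ to 3′. They come from chr11:20332699-20332728 (- strand, first capital base 4 bases before the gene's start), chr6:7693214-7693243 (- strand, 23 before), chr2:119351038-119351067 (+ strand, 193 before), chr2:152344028-152344057 (- strand, at base 15 after the start) and chr7:126625562-126625591 (- strand, 110 before), in this order. Each distance is that of the first capital base, and the printed stretch begins 11 bases earlier. A match is a description of the letters and not of binding.
Slc1a4: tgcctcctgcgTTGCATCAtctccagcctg
Asns: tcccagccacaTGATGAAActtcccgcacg
Chac1: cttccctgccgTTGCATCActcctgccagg
Trib3: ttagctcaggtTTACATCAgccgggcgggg
Nupr1: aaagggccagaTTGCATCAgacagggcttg

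Among 22 carriers of zinc, copper and magnesium, 2 had a region effect (11.8% of the 8923 did), and 1 of them was Slc39a12, marked for its pattern. Slc39a12 (ENSMUSG00000036949, chr2:14388316-14494977, + strand) encodes the zinc importer ZIP12 and was the carrier with the largest difference between PFC and midbrain, at 9.79 to 17.5 CPM in the midbrain (median 14.2), 15.3 to 29.1 CPM in the striatum (median 21.8) and 23.2 to 34.0 CPM in the PFC (median 27.3). Midbrain was lowest and PFC highest, with no overlap between those regions, while the striatum overlapped both. Its mean in the PFC was 104% above the midbrain (log2 fold change 1.03 ± 0.094, higher in 11 of 11 mice) and in the striatum 59.7% above it (0.68 ± 0.092, 12 of 12 mice). Astrocytes also express Slc39a12, and with the log2 sum of astrocyte markers as a covariate the values were 1.03 and 0.69. Mice 1 to 6 gave 1.04 and 0.62, and mice 7 to 12 gave 1.001 and 0.72.

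Slc39a14 encodes ZIP14, which takes up zinc, manganese and iron, and moved the other way. It lay at 11.3 to 17.6 CPM in the midbrain (median 16), 8.19 to 13.1 CPM in the striatum (median 11.6) and 7.28 to 17.3 CPM in the PFC (median 11.2). The striatum was lower in 12 of 12 mice (log2 fold change -0.46 ± 0.11, adjusted p = 0.00581) and the PFC in 9 of 11 (-0.41 ± 0.11, adjusted p = 0.0174), and the ranges overlapped. None of the other ZIP genes had a region effect, among them Slc39a1, Slc39a7 and Slc39a8, nor did the ZnT genes Slc30a1, Slc30a4, Slc30a5, Slc30a6, Slc30a7 and Slc30a9 or the copper carriers Slc31a1 and Slc31a2. With the mouse as a block, Slc39a13 had a region effect (adjusted p = 0.0315) and Slc39a4 was called lower in the striatum.

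Sugar and monocarboxylate carriers had 2 region effects among 20 genes, beside 11.8% of the 8923. Slc2a5 was at 994 to 1359 CPM in the midbrain (median 1105), 1130 to 1438 CPM in the striatum (median 1277) and 1199 to 1440 CPM in the PFC (median 1322). It was higher than in the midbrain in 10 of 11 mice in the PFC (17.9%, log2 fold change 0.24 ± 0.048, adjusted p = 8.04e-04) and in 10 of 12 in the striatum (13.1%), which is under the fold of 1.2. Slc16a3 encodes MCT4, which exports lactate, and ran from 59.7 to 92.5 CPM in the midbrain (median 75.9), from 39.5 to 71.5 CPM in the striatum (median 59.2) and from 48.03 to 72.6 CPM in the PFC (median 61.3). It fell by 22.2% in the striatum (log2 fold change -0.36 ± 0.078, adjusted p = 0.00255) and by 19% in the PFC (-0.30 ± 0.080, adjusted p = 0.0133), in 11 of 12 and 10 of 11 mice, with overlapping ranges. The glucose transporter Slc2a1 (106 CPM on average) and the lactate carriers Slc16a1 and Slc16a7 had no region effect. Of 20 glycolysis genes 2 had one, beside 8.89% of all genes and 11.8% of the 8923. Pfkl, a phosphofructokinase, was higher in PFC and striatum (log2 fold change 0.28 ± 0.083 and 0.31 ± 0.082). Aldoa, an aldolase, was at 0.19 ± 0.042 in the PFC, under the fold of 1.2.

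Of 20 carriers of nucleotide sugars and related Golgi proteins, 3 had a region effect, beside 11.8% of the 8923. Slc35c2, a Golgi protein linked to the fucosylation of Notch, was at 154 to 191 CPM in the midbrain (median 181), 190 to 240 CPM in the striatum (median 207) and 211 to 262 CPM in the PFC (median 227). All PFC samples lay above all midbrain samples, and the striatum lay between them. The log2 fold change was 0.37 ± 0.043 in the PFC (29.5%, adjusted p = 9.06e-08, 11 of 11 mice) and 0.23 ± 0.042 in the striatum (17.7%, adjusted p = 3.19e-04, 12 of 12 mice), where it stayed under the fold of 1.2. Its close relative Slc35c1, the GDP-fucose transporter of the Golgi, was at 22.6, 24.2 and 20.7 CPM in midbrain, striatum and PFC and had no region effect. Slc35e4 fell in the PFC, from 11.2 to 22.8 CPM in the midbrain (median 15.4) to 5.32 to 18.6 CPM in the PFC (median 9.94), by 31.3% (log2 fold change -0.54 ± 0.14, adjusted p = 0.00998, lower in 11 of 11 mice). In the striatum it was at 9.53 to 14.05 CPM, and that pair had an adjusted p of 0.104. Both calls of Slc35e4 ended without mouse 7, at -0.49 in the PFC and -0.33 in the striatum. Slc35f6 had a region effect under the fold of 1.2 (85.2 CPM in the striatum and 87.3 in the PFC against 76.4 in the midbrain).

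**Figure D5:**
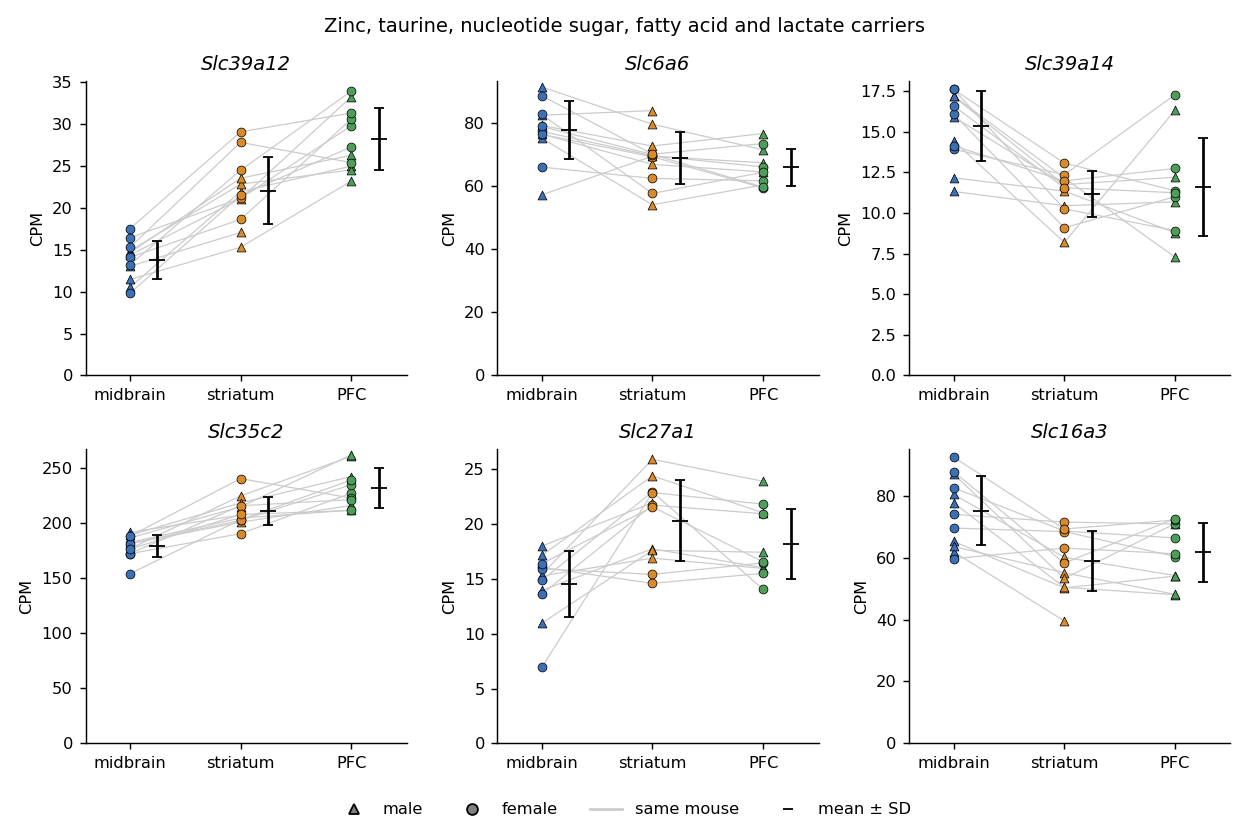
CPM of 6 carrier genes of other classes in each of 35 samples by region, with triangles for males, circles for females, grey lines joining samples of a mouse and black bars for mean ± SD. PFC samples of Slc39a12 (23.2 to 34.0 CPM) and Slc35c2 (211 to 262 CPM) lie above all midbrain samples, and the ranges of Slc6a6, Slc39a14, Slc27a1 and Slc16a3 overlap.

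Slc27a1 encodes FATP1, which takes up long-chain fatty acids. It was the one gene of 13 among carriers of organic ions and lipids with a region effect, beside 11.8% of the 8923. The midbrain ran from 6.92 to 17.99 CPM (median 15.3), the striatum from 14.6 to 25.9 CPM (median 21.7) and the PFC from 14.04 to 23.9 CPM (median 16.6). The striatum was higher in 10 of 12 mice (log2 fold change 0.48 ± 0.12, adjusted p = 0.00704), and the PFC value of 0.32 ± 0.12 had an adjusted p of 0.105. The PFC call ended without mouse 12 (0.22), whose midbrain sample was the lowest of its region. With the log2 sum of astrocyte markers as a covariate the values went to 0.28 in the striatum and 0.22 in the PFC and both calls ended, and mice 1 to 6 alone gave 0.29 and 0.086. The related Slc27a4 had no region effect.

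Mitochondrial carriers, the largest class, held 2 region effects among 31 genes, beside 11.8% of the 8923. Slc25a10, the dicarboxylate carrier, was at 23.3 ± 3.14 CPM (SD, n = 12) in the midbrain, 23.5 ± 2.66 CPM (n = 12) in the striatum and 28.1 ± 4.66 CPM (n = 11) in the PFC, with overlapping ranges. It was higher in the PFC by 20.7% (log2 fold change 0.27 ± 0.084, adjusted p = 0.043, 10 of 11 mice), close to the limit for a call. The call ended with the mouse as a block (0.26), without the striatum sample of mouse 3 (0.27), with other brain cell markers as a covariate (0.25), in each sex alone (0.34 and 0.20), in mice 1 to 6 or 7 to 12 alone (0.38 and 0.17), and on leaving out any mouse other than 7 and 8. Slc25a5 had a region effect with small folds, at 1062 ± 83.3 CPM in the midbrain, 991 ± 84.2 in the striatum and 1156 ± 79.4 in the PFC. Slc25a1, the citrate carrier, Slc25a3, the phosphate carrier, and Slc25a4 had none.

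Choline, nucleoside and vitamin carriers had 1 region effect among 9, beside 11.8% of the 8923. It was in Slc44a2, a choline transporter-like protein, at 291 ± 32.0 CPM in the midbrain, 341 ± 35.4 in the striatum and 336 ± 44.7 in the PFC, with folds under 1.2. The folate carriers Slc19a1 and Slc46a1 and the nucleoside carriers Slc29a1 and Slc29a3 had none, although Slc29a1 did with the mouse as a block (adjusted p = 0.0306). The 20 carriers of ions, bicarbonate and phosphate include the chloride cotransporters of the SLC12 family and the proton exchangers of the SLC9 family. Of these 20, 0 had a region effect in the edgeR fit (11.8% of the 8923 did), and with the mouse as a block Slc4a2 and Slc9a7 did (22.4%).

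Between striatum and PFC few carriers were called: Slc7a5 was higher in the striatum (0.637% of the 157, against 2.31% of all genes and 2.47% of the 8923). Slc39a12 was the one carrier called lower (0.833% of all genes and 0.818% of the 8923 were). As it was marked for its pattern, that count is a description with no test. For Slc7a5 the log2 fold change was 0.33 ± 0.095 (adjusted p = 0.101, higher in 10 of 11 mice), and it went to 0.26 with other brain cell markers as a covariate, which ended the call. Slc39a12 was 21.6% below the PFC level (-0.35 ± 0.093, lower in 10 of 11 mice). With the mouse as a block, 4 carriers were higher in the striatum (Slc7a5, Slc35e4, Slc38a10 and Slc4a2) and 2 lower (Slc39a12 and Slc39a4).

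Differences by sex were small. With a threshold of an unadjusted p under 0.05 and a fold over 1.2, 0 carriers were higher in males (2.66% of all genes were) and 0 higher in females (1.48%), in a test that takes the samples of a mouse as separate. An unadjusted p under 0.05 without the fold was found for 15 carriers with edgeR and 20 with DESeq2, and for 8 when the counts of each of the 11 mice with all regions were summed first. None had an adjusted p under 0.05 with edgeR and 2 did with DESeq2. Slc16a3 led, at 60.0 ± 12.9 CPM (SD, n = 17) in males and 70.5 ± 9.36 CPM (n = 18) in females (log2 fold change of males against females -0.25 ± 0.0645, adjusted p = 0.0829). Slc30a7, Slc35b4 and Slc39a13 also had higher means in females, and Slc35b3, Slc25a16, Slc23a2, Slc33a1 and Slc15a3 in males, with adjusted p-values of 0.201 to 0.614. The region by sex interaction was tested directly and passed for 0 carriers (0% of all genes at an adjusted p under 0.05). An unadjusted p under 0.05 for it was found for 0 carriers with edgeR, 5 with the mouse as a block and 2 with DESeq2.

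Just outside the limit of 5 CPM, 39 solute carrier genes had a mean of 1 to 5 CPM. Slc2a6 and Slc1a5 are named here after their values were seen. Slc2a6, a hexose transporter of the lysosome, was at 8.21 ± 1.35 CPM (SD, n = 12) in the midbrain, 2.49 ± 1.39 CPM (n = 12) in the striatum and 1.03 ± 0.725 CPM (n = 11) in the PFC (log2 fold change -2.99 ± 0.32 in the PFC, adjusted p = 2.15e-08, and -1.70 ± 0.29 in the striatum, adjusted p = 1.77e-04). Slc1a5, the glutamine exchanger ASCT2 and closest relative of Slc1a4, was at 6.07 ± 1.60 CPM in the midbrain, 4.09 ± 1.29 in the striatum and 3.45 ± 0.976 in the PFC (-0.82 ± 0.17 in the PFC, adjusted p = 0.00126).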

How the data were processed

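RNA-seq was done on sorted tdTomato-positive cells from 3 brain regions of 12 mice (SMART-Seq HT and Nextera XT libraries, which do not mark strand). Reads were trimmed with Trimmomatic and mapped to GRCm38 with HISAT2, and the authors deposited raw counts per gene, kept where a region and sex subgroup reached 1 CPM. The counting tool, annotation release and use of strand are not given in the sources used here. No column of the table was left unmapped to a sample.

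From these counts, edgeR 4.0.16 (R 4.3.3) fitted its quasi-likelihood model of region and sex to 35 samples and 21236 genes (TMM, robust), with Benjamini-Hochberg adjustment over all genes. Fold changes used the default prior count of the edgeR fit, and a prior count of 2 entered only the log2 CPM of the check of mouse pairing. The SE is the absolute log2 fold change over the square root of F, and CPM per kb used the union of exons of the GENCODE annotation. The interaction was fitted as region by sex. A pair of regions was called at a region adjusted p under 0.05, a pair p under 0.05 and a fold over 1.2, and sex at a p under 0.05 and the same fold. Scripts were tested on simulated data.

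The members, the gene lists and the pair of genes shown were chosen with earlier results of these data known. Genes were named by a rule: the called members with the largest changes per pair of regions (up to 10 in each direction), the 10 highest per kb, called members of each class with others of their family, the genes next to the threshold, and up to 5 per direction for sex. Some genes that the rule names are not reported here. Alternatives were DESeq2 1.42.0, its size factors, limma 3.58.1 with voom and the mouse as a random effect, the mouse as a block, filters, thresholds, one sex, mice 1 to 6 or 7 to 12, each mouse left out, the striatum sample of mouse 3 left out, and marker covariates. The astrocyte and dissociation covariates and the block in the interaction fit were added after the data were seen. The number in the titles is the mouse, so it pairs samples: over 9541 genes, deviations from the group means correlated at a mean of 0.325 in 34 same-mouse pairs (32 of them over 0.1) and -0.0631 in 170 other pairs. Intervals of counting error were not needed at this depth. Figures were drawn with matplotlib 3.10.9.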

Additional observations from a re-analysis of the deposited data

Results flagged for a closer look

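Within each region and sex, samples far from the others of their group were sought for the 18 carriers with a region effect (a gap to the nearest sample above Dixon's 95% limit). Other named carriers were not searched. Of 108 groups tested 10 had such a sample, and chance flags about 1 in 20 groups.

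Among amino acid carriers, Slc7a1 was at 24.95 CPM in the female midbrain sample of mouse 8 (the others at 6.93 to 13.04) and at 25.17 CPM in the male midbrain sample of mouse 11 (the others at 11.8 to 15.2). Slc1a4 was at 26.74 CPM in the same midbrain sample of mouse 11 (the others at 16.1 to 19.4). Slc38a2 was at 105.1 CPM in the male midbrain sample of mouse 5, the others at 221 to 274.

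In the sugar and lactate carriers, Slc2a5 was at 1359 CPM in the male midbrain sample of mouse 5 (the others at 994 to 1130), and Slc16a3 at 71.01 CPM in the male PFC sample of mouse 11 (the others at 48.03 to 54.2). Mouse 12 held the other values: Slc25a5 at 1269 CPM in its midbrain sample (other females at 1004 to 1070), Slc27a1 at 6.923 CPM there (13.6 to 16.4), Slc35e4 at 14.8 CPM in its PFC sample (9.25 to 10.5) and Slc44a2 at 280.9 CPM there (342 to 375).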

How the results depend on the processing

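No result reversed. Counts are given in the order higher then lower, against 18 carriers with a region effect, 4 and 7 in PFC against midbrain, 4 and 7 in striatum against midbrain, 1 and 1 in striatum against PFC, 9 and 10 amino acid response genes lower in PFC and striatum, and 0 by sex. With the mouse as a block, 30 carriers had a region effect, and striatum against PFC gave 4 and 2. DESeq2 gave 2 higher in striatum than PFC and limma voom 3. Males alone gave 5 region effects, 2 and 3 in PFC, 1 and 3 in striatum, 0 higher in striatum than PFC, and 3 and 3 response genes. Females alone gave 4 region effects, 2 and 2 in PFC, 2 and 2 in striatum, and 4 and 5 response genes. Mice 1 to 6 gave 6 region effects, 2 and 4 in PFC, 1 and 3 in striatum, 2 higher in striatum than PFC, 4 and 4 response genes, 1 carrier higher in males and 3 in females. Mice 7 to 12 gave 11 region effects, 0 higher in striatum than PFC and 4 higher in males. These subsets hold fewer samples. Against the midbrain, Slc1a4 and Slc7a5 were called in both regions in all of these subsets and Slc35c2 in the PFC.

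Without the striatum sample of mouse 3, 1 carrier was higher in males. Other brain cell markers as a covariate left 2 higher in striatum than midbrain and 0 than PFC, and 1 higher in males. The astrocyte covariate left 1 higher in striatum and 6 response genes lower there, and the dissociation covariate left 2 higher in striatum. With a level limit of 1 CPM, 13 were lower in PFC and 14 in striatum (3.24% and 2.98% of all genes were), 3 higher in striatum than PFC and 3 in males. Adjusted p-values for pairs left 0 and 0 between striatum and PFC. Without a minimum fold, 8 were higher in PFC, 8 in striatum, 4 lower in striatum than PFC, 5 higher in males and 10 in females. Counts summed per mouse gave 1 higher in males. The cause of these changes was not tested.

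Leaving out each mouse in turn gave 12 to 17 region effects, 2 to 4 higher and 6 to 8 lower in PFC, 2 to 4 higher and 6 to 8 lower in striatum, 1 to 2 higher and 1 to 2 lower in striatum than PFC, 7 to 10 and 8 to 12 response genes, 0 to 3 higher in males, 0 to 2 in females and 0 to 0 interactions. The 2 higher in PFC came without mouse 12, and the 2 higher in striatum without mouse 2, 3, 4, 5, 8, 9, 10 or 12. Over these counts, 250 alternative values stayed within 1.5 times the value reported and 79 did not. At this depth 3 counts stood for at most 0.0789 CPM, and of the genes named Chac1, Vldlr, Tek and Cdh5 lay near that level in at least 1 region.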

Other observations

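The promoter windows of the carriers were also searched for CACGTG, the palindromic E-box core that MITF and TFE family factors, MYC and other helix-loop-helix proteins can bind. It stood in 26 of 168 windows (15.5%) and in 24 of 121 genes, beside 7.15% of all windows and 10.8% of those of protein coding genes with a mean of at least 5 CPM. The 24 genes include the carriers Slc36a1, Slc38a7, Slc30a5, Slc29a1 and Slc25a1, and 0 of the 5 matched carriers that were lower in PFC and striatum. The shares are a description with no test, and a match says nothing of binding.

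Below the level limit, Slc6a9, a glycine transporter, and Slc6a11, a GABA transporter, were also called lower in PFC and striatum than in the midbrain. Of 2 relatives of Slc43a2, Slc43a1 was called higher in both. Slc43a3 was called lower in both (log2 fold change -0.86 ± 0.17 in the PFC and -0.57 ± 0.17 in the striatum). They had a mean of 1 to 5 CPM and are named after their values were seen.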
